A study of Mus musculus with 6 samples.

Results

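Immediate-early genes are the genes that a cell switches on first after a signal, without having to make new protein. Here 10 of them (Fos, Fosb, Jun, Junb, Jund, Egr1, Egr2, Ier2, Ier3 and Zfp36) were followed out of 37576 genes counted by RNA sequencing of mouse fetal liver. They were taken by gene symbol. All 10 were found in the gene table and all 10 had enough reads to be tested. The set is usually called immediate-early transcription factors, but not every gene in it encodes one. Ier3 encodes a stress response protein and Zfp36 an RNA-binding protein, so the genes are called immediate-early genes here.

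The livers came from C57BL/6 mouse embryos at embryonic day 12.5. The mutant embryos were homozygous for E861A, a single-residue change in ADAR1 that leaves the enzyme unable to convert adenosine to inosine in double-stranded RNA. They were compared with wild-type embryos to ask what the absence of editing changes in gene expression. Livers 6, 16 and 19 were E861A and all male, and livers 2, 15 and 17 were wild type, of which 2 was male and both others female. Sex was therefore partly tied to genotype. The whole liver carried the mutation, and RNA was taken from single cell suspensions of the whole organ, a mixture of red cell precursors, other blood cells, hepatoblasts, endothelial and mesenchymal cells. In such a mixture fewer cells of a type and less RNA per cell cannot be told apart. The labels number the livers but do not say whether they came from separate litters, and p-values measure the spread between these samples.

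Proteins of the Fos family (Fos, Fosb) pair with those of the Jun family (Jun, Junb, Jund) to form AP-1, a transcription factor that binds DNA as a dimer. Fos proteins need a Jun partner, while Jun proteins can also pair with each other. Egr1 and Egr2 are zinc-finger transcription factors that bind GC-rich DNA. Their genes are known to be switched on within minutes by growth factors, cytokines and cell stress, through MAP kinases that act on serum response factor and its ETS partners. The response is known to follow also from dispersing a tissue into single cells. Tristetraprolin, the product of Zfp36, speeds the decay of messenger RNAs that carry AU-rich elements, which many immediate-early and cytokine messages do. In the fetal liver Jun is known to be needed for hepatoblast survival, and Egr1 and Junb are known as regulators of blood cell growth and differentiation.

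The regulatory sequence in front of the genes is where such signals are known to arrive, so 5 promoters that hold a serum response, cyclic AMP or AP-1-like motif near the start are shown. RefSeq (build GRCm38.p6) gave a promoter of 300 bases, 250 before the start and 50 from it on, for 8 of the 10 genes. Egr1 and Ier2 had no entry. Below are the 150 bases from 130 before the start, on the strand of the gene, with the motifs in capitals.
Fos (chr12:85473760-85473909, + strand): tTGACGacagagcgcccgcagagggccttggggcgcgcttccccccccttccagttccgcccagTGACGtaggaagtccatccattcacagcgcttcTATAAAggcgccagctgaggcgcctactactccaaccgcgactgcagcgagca
Jun (chr4:95052203-95052352, - strand): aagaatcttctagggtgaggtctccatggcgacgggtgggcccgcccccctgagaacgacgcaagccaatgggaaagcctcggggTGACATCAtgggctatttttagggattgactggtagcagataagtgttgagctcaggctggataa
Junb (chr8:84978729-84978878, - strand): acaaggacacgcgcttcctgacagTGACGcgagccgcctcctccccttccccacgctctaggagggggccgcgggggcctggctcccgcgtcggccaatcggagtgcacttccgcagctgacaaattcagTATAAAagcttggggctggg
Egr2 (chr10:67537739-67537888, + strand): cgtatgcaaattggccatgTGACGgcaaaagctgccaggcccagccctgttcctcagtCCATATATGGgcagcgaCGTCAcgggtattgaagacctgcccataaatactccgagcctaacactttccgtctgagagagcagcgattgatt
Zfp36 (chr7:28379209-28379358, - strand): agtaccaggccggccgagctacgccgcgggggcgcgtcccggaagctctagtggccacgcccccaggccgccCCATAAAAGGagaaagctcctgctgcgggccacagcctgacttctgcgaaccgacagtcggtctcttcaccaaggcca

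The longest capital runs in Egr2 and Zfp36 are CArG boxes, the motif of serum response factor (CC, then 6 letters that are A or T, then GG). In the entry shown, the CArG box of Egr2 began 72 bases before the start, and that of Zfp36 began 58 bases before it. In other Egr2 entries a CArG box began 72, 73 or 133 bases before the start, and not every entry held one. Among the 8 genes with an entry these 2 held one, against 1.81% of 27025 genes with an entry. TGACG, the core of the cyclic AMP response element, stood on either strand in Fos, Fosb, Junb and Egr2, 4 of 8, against 23.05% of all genes. In Fos it began 129 and 66 bases before the start. TGACNTCA, a motif of Jun and ATF dimers, was found in Jun, where it began 45 bases before the start, 1 of 8 against 10.02% of all genes. TATAAA was in Fos and Junb, 2 of 8 against 15.7%, but in Junb it began at the start itself, and in the bases before the start it was found in 1 of 8. GGANTTTCC, an NF-kB-like motif, was in Ier3, 1 of 8 against 1.45%. No match was found in these windows for TGANTCA (AP-1), GCGTGGGCG (EGR), GGG, any pair of bases and TTTCC (NF-kB) or GAAA, any pair of bases and GAAA (interferon response), which 8.97%, 0.707%, 1.89% and 3.99% of all genes held. All motifs were searched on both strands, and a match is a string of letters, not a measured site. Sequence farther than 250 bases before the start was not searched, so a gene without a match here may hold the motif there.

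The libraries held between 35280460 and 43733715 reads in genes. Over the sites of the deposited editing table, the edited share of covering reads was 1.96%, 1.59% and 1.74% in E861A livers 6, 16 and 19, against 4.73%, 6.32% and 5.32% in wild-type livers 2, 15 and 17, which fits the genotype labels. Of 6012 editing sites the table placed 0 in any of the 10 genes. Across all 16511 genes tested (edgeR, quasi-likelihood F test, p adjusted by the Benjamini-Hochberg method), 7.77% rose and 4.26% fell in E861A at an adjusted p under 0.05. Summed markers of cell types are given beside the results they move with.

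One liver of each genotype stood apart before any comparison was made. E861A 6 and wild type 2 had far fewer reads of Fos and Fosb than the other livers of their genotype. Fos had 355 reads in E861A 6, against 4483 and 4871 in E861A 16 and 19, while wild type 2 had 66 reads of it and wild type 15 and 17 had 1755 and 1071. Of the 10 genes, 9 were lowest in liver 6 among the E861A livers and 10 were lowest in liver 2 among the wild-type livers. Over all tested genes, 20.7% were lowest in both of these livers, against 9 of the 10. The pair was singled out by the low levels of genes among the 10, so this count follows from the choice and is not a separate result. The fold change of each of the 10 genes and the count of each gene list are given over all 6 livers and without this pair. The pair was left out because of the level of these genes, after the data were seen, so the second value describes the remaining 4 livers and is not independent support.

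Of the 10 genes, 4 rose in E861A livers and the other 6 did not pass the test. The fitted log2 fold change was above 0 for all 10. Those that rose by edgeR's quasi-likelihood test were Egr1, Junb, Egr2 and Ier2, against 7.77% of all tested genes, while 0 fell, against 4.26% (also 0 at an unadjusted p under 0.05 and by DESeq2). Egr2 could pass the filter on low counts only through its E861A libraries, so its call adds nothing to the count. In 5 genes (those 4 and Zfp36) every E861A liver lay above every wild-type liver in CPM, against 19.4% of all tested genes. For Egr2 this separation too was set by the filter, so it adds nothing to these 5. CPM are reads per 1000000 on totals scaled by TMM. Only Egr1 passed the test without E861A 16 or without wild type 17, where 3.02% and 3.23% of all tested genes rose. Without E861A 6 and wild type 2, 9 of the 10 rose, all but Ier3, against 15.4% of genes. With sex as a covariate 4 rose (Junb, Egr1, Ier2 and Zfp36), against 3.21% of genes. Together the 10 genes took 0.0312%, 0.0667% and 0.0606% of reads in E861A 6, 16 and 19, against 0.0132%, 0.0252% and 0.0224% in wild type 2, 15 and 17, so that the lowest E861A liver was above the highest wild-type liver.

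**Figure D1:**
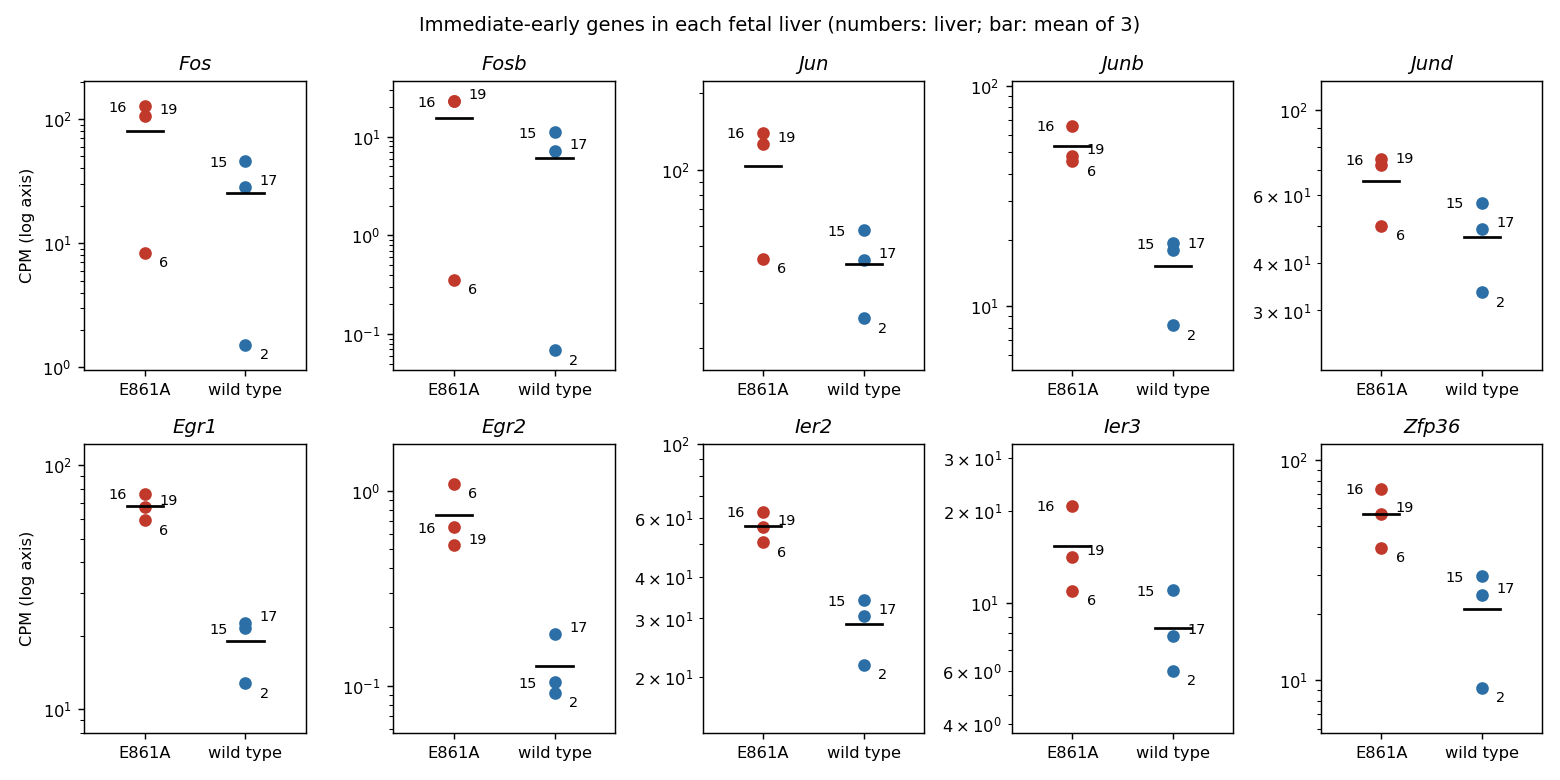
CPM of each of the 10 genes (log axis) in E861A livers (red) and wild-type livers (blue), with the liver number beside each point and the mean of 3 livers as a bar. Livers 6 and 2 lie lowest in their genotype for Fos (8.39 and 1.52 CPM) and Fosb (0.355 and 0.0690 CPM), while Egr1 and Junb show groups that do not overlap.

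Fos, the leading partner of Jun proteins in AP-1 (chromosome 12, 86814840 to 86818223, plus strand, build NCBIM37), had 8.39, 126.6 and 106.6 CPM in E861A 6, 16 and 19, against 1.52, 45.8 and 28.4 CPM in wild type 2, 15 and 17. E861A 16 and 19 were above every wild-type liver, but E861A 6 was below wild type 15 and 17, so the groups overlapped. The mean was 80.5 ± 63.2 CPM in E861A and 25.2 ± 22.3 CPM in wild type (SD, n = 3 each). The fitted log2 fold change was 1.68 (SE 1.20) with an adjusted p of 0.432 by edgeR's quasi-likelihood test, and the difference did not exceed the spread between livers. Between the highest and lowest liver Fos differed 15.1-fold within E861A and 30.2-fold within wild type. Without E861A 6 and wild type 2 the log2 fold change was nearly the same, 1.65, but its SE was 0.26 and its adjusted p by edgeR was 0.0140.

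Fosb, its close relative (chromosome 7, 19888070 to 19895394, minus strand), varied still more. It had 0.355, 22.9 and 22.8 CPM in E861A 6, 16 and 19, against 0.0690, 11.1 and 7.12 CPM in wild type 2, 15 and 17. The low ends stand for 15 reads in E861A 6 and 3 reads in wild type 2. The other E861A livers had 810 and 1043 reads, and the other wild-type livers 424 and 269. The groups overlapped, and the highest liver exceeded the lowest 64.5-fold in E861A and 160.3-fold in wild type. Fosb differed by 1.34 on the log2 scale (SE 1.51, adjusted p = 0.643, edgeR), and 1.33 (SE 0.23, adjusted p = 0.0145, edgeR) without livers 6 and 2.

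Fos and Fosb were low together in livers 6 and 2, and Fosb was lower still. The log2 ratio of Fosb to Fos reads was -4.56, -2.47 and -2.22 in E861A 6, 16 and 19, against -4.46, -2.05 and -1.99 in wild type 2, 15 and 17. Livers 6 and 2 were alike in this ratio, and the other livers of both genotypes were between -2.47 and -1.99. The means differed by -0.25 between E861A and wild type (exact permutation test, two-sided, p = 0.5).

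**Figure D2:**
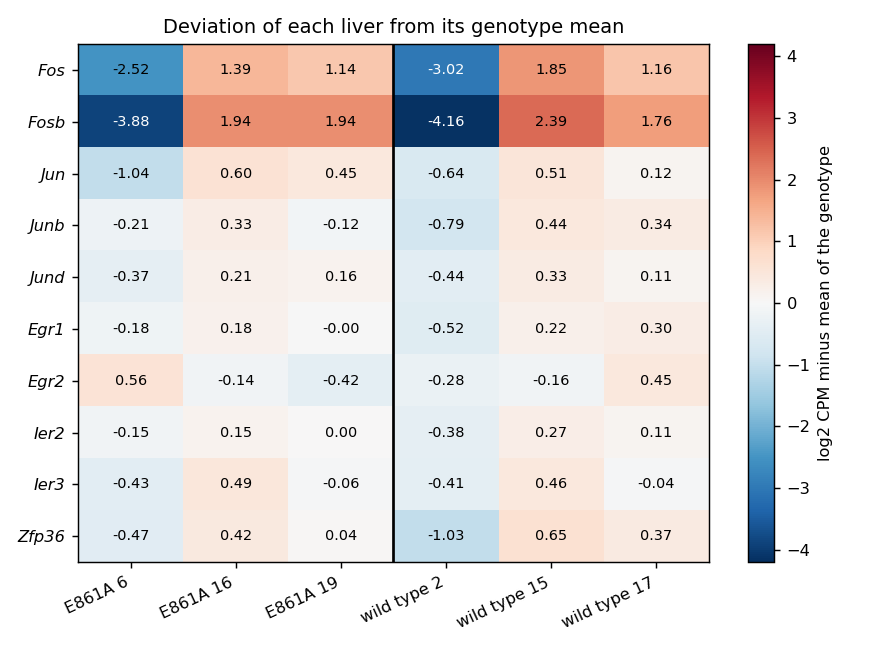
Log2 CPM of each gene in each liver minus the mean of its genotype, with E861A livers left of the line and wild-type livers right of it. Liver 6 is at -2.52 for Fos and -3.88 for Fosb and liver 2 at -3.02 and -4.16, while Egr2 is highest in liver 6 among the E861A livers (0.56).

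Jun (chromosome 4, 94715725 to 94718913, minus strand, 1 exon), the founding member of the Jun family, had 44.8, 139.8 and 126.1 CPM in E861A 6, 16 and 19, against 26.1, 57.9 and 44.1 CPM in wild type 2, 15 and 17. E861A 16 and 19 were above all wild-type livers, and E861A 6 lay between them. The log2 fold change was 1.28 (SE 0.46, adjusted p = 0.123, edgeR), and it was 1.38 (SE 0.15, adjusted p = 0.00541, edgeR) without livers 6 and 2. Without E861A 6 alone it passed the test at 1.64 (adjusted p = 0.0406, edgeR). An exon of the antisense transcript BC042782 overlaps Jun, and whether the libraries kept strand is not stated, so their reads cannot be told apart. BC042782 had 27, 12 and 33 reads in E861A 6, 16 and 19, and 27, 8 and 3 in wild type 2, 15 and 17, far below those of Jun.

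Junb, known to restrain cell growth and to oppose Jun at many targets (chromosome 8, 87500811 to 87502617, minus strand), separated the genotypes clearly. It had 45.4, 65.7 and 48.3 CPM in E861A 6, 16 and 19, against 8.21, 19.3 and 18.01 CPM in wild type 2, 15 and 17. The lowest E861A liver was above the highest wild-type liver. The mean was 53.1 ± 11.0 CPM in E861A and 15.2 ± 6.05 CPM in wild type (SD, n = 3 each). Junb rose 3.50-fold, a log2 fold change of 1.81 (SE 0.33, adjusted p = 0.0145, edgeR). The call was lost without E861A 16 (1.57, adjusted p = 0.0588) and without wild type 17 (1.95, adjusted p = 0.0534), both by edgeR. It was 1.61 without livers 6 and 2 (SE 0.17, adjusted p = 0.00497, edgeR).

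Jund, the Jun family member known to be present in resting cells (chromosome 8, 73221638 to 73224515, plus strand), showed the smallest difference of the 10. It had 49.995, 74.6 and 72.0 CPM in E861A 6, 16 and 19, against 33.5, 57.3 and 49.0 CPM in wild type 2, 15 and 17. The groups overlapped, since wild type 15 was above E861A 6. Jund differed by 0.49 on the log2 scale (SE 0.24, adjusted p = 0.222, edgeR), and 0.46 (SE 0.11, adjusted p = 0.0282, edgeR) without livers 6 and 2. Gm11175 overlaps Jund on the opposite strand and had 0 reads in all 6 libraries.

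Within the Jun family, Junb stood closer to Jund in every E861A liver than in any wild-type liver. The log2 ratio of Junb to Jund reads was -0.14, -0.18 and -0.58 in E861A 6, 16 and 19, against -2.03, -1.57 and -1.44 in wild type 2, 15 and 17. The genotypes did not overlap. E861A 6 did not stand apart, while wild type 2 had the lowest ratio of its genotype. The ratio averaged -0.30 ± 0.24 in E861A and -1.68 ± 0.31 in wild type (SD, n = 3 each). The difference was 1.38, with an exact two-sided permutation p of 0.1, the smallest that 3 livers against 3 allow, and 0.5 after Benjamini-Hochberg adjustment over the 5 ratios compared. For Jun to Jund the ratio was -0.16, 0.91 and 0.81 in E861A 6, 16 and 19, against -0.36, 0.01 and -0.15 in wild type 2, 15 and 17 (difference 0.68, exact permutation p = 0.3). For Fos to Jun it was -2.42, -0.14 and -0.24 in E861A 6, 16 and 19, against -4.10, -0.34 and -0.64 in wild type 2, 15 and 17 (difference 0.76, exact permutation p = 0.5).

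**Figure D3:**
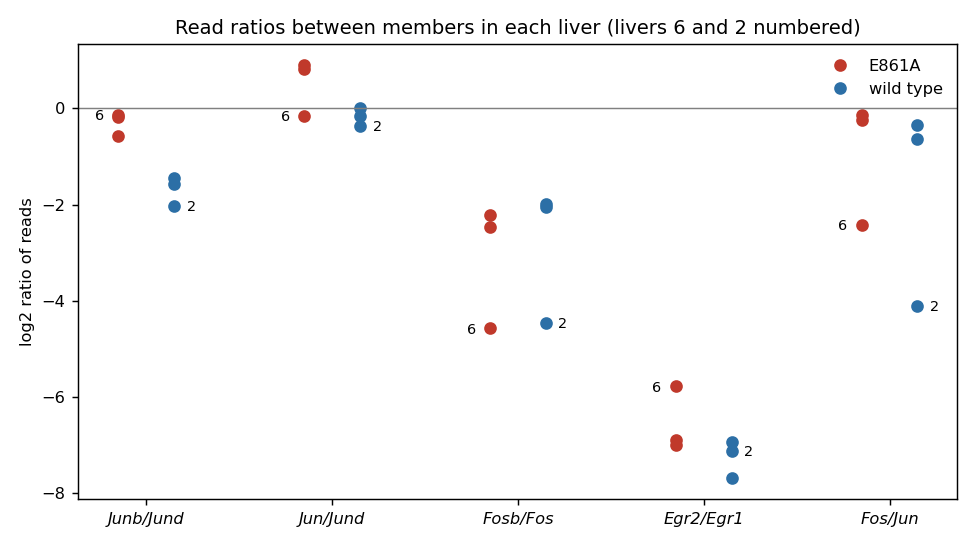
Log2 ratio of the reads of 2 genes in each liver, E861A livers in red left of wild-type livers in blue, for 5 pairs. For Junb to Jund the E861A livers lie between -0.58 and -0.14 and the wild-type livers between -2.03 and -1.44. For Fosb to Fos and Fos to Jun, livers 6 and 2 lie far below the others.

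Egr1 showed the firmest difference of the 10. This zinc-finger factor (chromosome 18, 35020861 to 35024638, plus strand) is known to respond to many growth signals and to be held back by the NAB corepressors. It had 59.5, 76.6 and 67.2 CPM in E861A 6, 16 and 19, against 12.8, 21.4 and 22.6 CPM in wild type 2, 15 and 17. The groups lay far apart, and within E861A the highest liver was only 1.29-fold above the lowest. The mean was 67.8 ± 8.55 CPM in E861A and 18.9 ± 5.37 CPM in wild type (SD, n = 3 each). Egr1 rose 3.58-fold (log2 fold change 1.84, SE 0.23, adjusted p = 0.00243, edgeR), and it passed the test under each of the 13 alternatives tried, with log2 fold changes from 1.61 to 2.42. It was 1.71 (SE 0.11) without livers 6 and 2. Gm17507, which overlaps Egr1 on the other strand, had 0 reads. The gene table starts Egr1 1384 bases before the annotation used here.

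Egr2, known for its part in myelin formation and in the development of macrophages and T cells (chromosome 10, 66998223 to 67004936, plus strand), had the largest fold change and the fewest reads. It had 46, 23 and 24 reads in E861A 6, 16 and 19, against 4, 4 and 7 reads in wild type 2, 15 and 17. These are 1.09, 0.649 and 0.525 CPM in E861A and 0.0920, 0.104 and 0.185 CPM in wild type, with no overlap. Egr2 alone was highest in liver 6 among the E861A livers. The log2 fold change was 2.55 (SE 0.49, adjusted p = 0.0148, edgeR). Only its E861A libraries reached the low-count floor of 0.245 CPM, so that to be tested at all it had to be higher in them. The call was lost with sex as a covariate (adjusted p = 0.0997, edgeR) and without 4 of the 6 livers in turn, and Egr2 was not tested under a floor of 1 CPM. Without livers 6 and 2 the log2 fold change was 1.99 (SE 0.47, adjusted p = 0.0295, edgeR).

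Ier2, a small nuclear protein whose action on transcription is less well known (chromosome 8, 87185230 to 87186751, minus strand), had 50.7, 62.5 and 56.5 CPM in E861A 6, 16 and 19, against 21.8, 34.0 and 30.6 CPM in wild type 2, 15 and 17. No wild-type liver reached the E861A range. The mean was 56.6 ± 5.90 CPM in E861A and 28.8 ± 6.30 CPM in wild type (SD, n = 3 each). Within E861A the highest liver was 1.23-fold above the lowest, the smallest such ratio of the 10 genes. Ier2 rose 1.96-fold (log2 fold change 0.97, SE 0.19, adjusted p = 0.0156, edgeR). The call was lost without E861A 16 (adjusted p = 0.0705), without wild type 17 (adjusted p = 0.0698) and in male livers alone (adjusted p = 0.0521), all by edgeR. Ier2 was at 0.88 without livers 6 and 2 (SE 0.11, adjusted p = 0.00569, edgeR).

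Ier3, known to protect stressed cells from death (chromosome 17, 35958629 to 35959868, plus strand), had 11.0, 20.8 and 14.2 CPM in E861A 6, 16 and 19, against 6.00, 11.0 and 7.79 CPM in wild type 2, 15 and 17. E861A 6 and wild type 15 had nearly the same level. The log2 fold change was 0.89 (SE 0.30, adjusted p = 0.102, edgeR), and Ier3 passed the test under 0 of the 13 alternatives, with adjusted p from 0.0561 to 0.351 by edgeR and DESeq2. Ier3 was again at 0.89 without livers 6 and 2 (SE 0.27, adjusted p = 0.0612, edgeR).

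Zfp36, the gene of tristetraprolin (chromosome 7, 29161803 to 29164274, minus strand), had 39.7, 73.7 and 56.6 CPM in E861A 6, 16 and 19, against 9.22, 29.6 and 24.4 CPM in wild type 2, 15 and 17. Every E861A liver was above every wild-type liver. The mean was 56.7 ± 17.01 CPM in E861A and 21.1 ± 10.6 CPM in wild type (SD, n = 3 each). The log2 fold change was 1.43 (SE 0.43), with an adjusted p of 0.0788 by edgeR, which missed the threshold of 0.05. It passed the test without livers 6 and 2 (1.27, SE 0.17, adjusted p = 0.00847, edgeR), without wild type 2 alone (1.06, adjusted p = 0.0313, edgeR), with sex as a covariate (2.62, adjusted p = 0.0183, edgeR) and by DESeq2 (1.37, adjusted p = 0.00418).

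**Figure D4:**
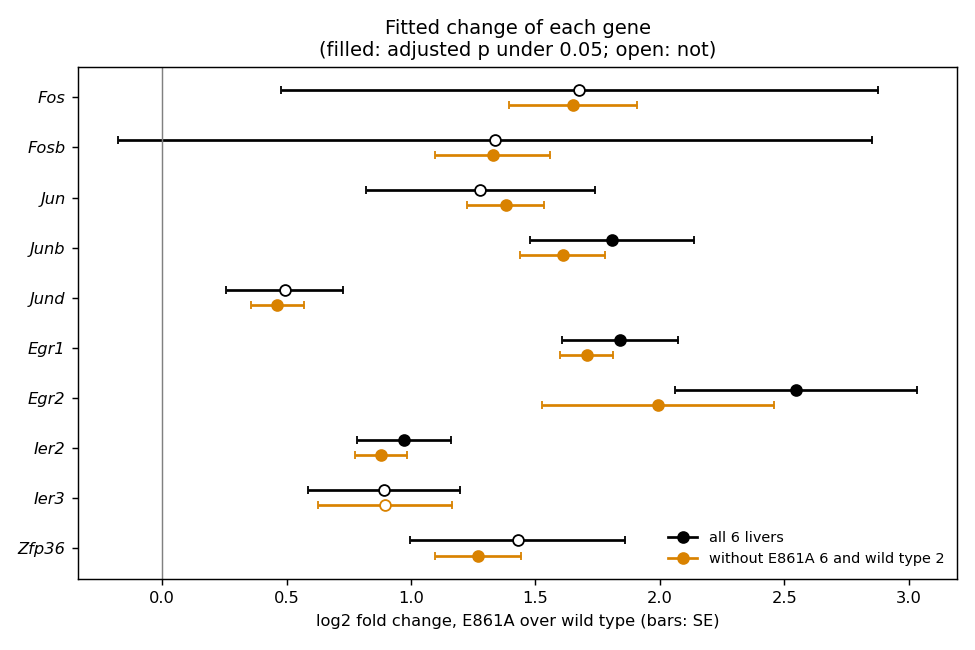
Log2 fold change of E861A over wild type for each gene, with bars of 1 SE, over all 6 livers (black) and without E861A 6 and wild type 2 (orange). Filled points have an adjusted p under 0.05 by edgeR. Fos stays near 1.7 in both fits while its SE is 1.20 over all livers and 0.26 without the pair.

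With sex as a covariate the genotype difference rests on the only male wild-type liver, number 2, where all 10 genes were lowest. Sex and this single liver cannot be told apart. The log2 fold change was then 5.73 (SE 1.72) for Fos and 7.73 (SE 2.78) for Fosb, with adjusted p of 0.144 and 0.206 by edgeR. For Junb it was 2.69 (SE 0.28, adjusted p = 0.00471, edgeR) and for Egr1 2.41 (SE 0.22, adjusted p = 0.00268, edgeR). For Jun it was 1.99 and for Jund 0.97, neither past the test. No female E861A liver was analysed here, and the genotype difference in females was not tested.

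The authors' deposited table gave much the same picture for the 9 genes it lists, with the sign turned here so that positive is higher in E861A. Egr1 was at 1.90 (adjusted p = 0.00207), Junb at 1.91 (adjusted p = 0.00820) and Ier2 at 1.01 (adjusted p = 0.0131) in the authors' deposited table. Zfp36, at 1.57, had an adjusted p of 0.0466 in the authors' deposited table, on the other side of the threshold from the fit used here. Egr2 is not listed among its 14484 genes.

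Per length of transcript, the order of the genes differed between the genotypes. In E861A livers the mean level per kilobase was 37.2 ± 3.88 RPKM for Ier2, 34.2 ± 26.9 for Fos, 32.5 ± 16.1 for Jun, 31.6 ± 9.49 for Zfp36 and 29.4 ± 6.08 for Junb (SD, n = 3). Jund followed with 22.8 ± 4.70 RPKM and Egr1 with 21.9 ± 2.76, then Ier3 with 13.5 ± 4.43, Fosb with 4.09 ± 3.46 and Egr2 with 0.222 ± 0.0869. The ranges of neighbours in this order overlapped, except between Egr1 and Ier3 and between Ier3 and Fosb. In wild-type livers Ier2 also led with 18.9 ± 4.14 RPKM, but Jund came next with 16.2 ± 4.19, and Junb (8.39 ± 3.35), Ier3 (7.31 ± 2.24) and Egr1 (6.11 ± 1.73) stood below Fos (10.7 ± 9.48). There the ranges overlapped between all neighbours except Egr1 and Fosb.

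Cell type markers were read beside these values, and their counts stand against 7.77% of all tested genes that rose and 4.26% that fell. Summed over 9 granulocytic markers, the level was 392.5, 681 and 569 CPM in E861A 6, 16 and 19, against 260, 477 and 374 CPM in wild type 2, 15 and 17, lowest in livers 6 and 2 like most of the immediate-early genes. Of these markers 2 rose and 0 fell, but their median log2 fold change was -0.22. Mpo, with 187, 398 and 334 CPM in E861A, against 80.4, 186 and 129 CPM in wild type, made up much of the sum, while S100a8 was lower in every E861A liver (-0.53, adjusted p = 0.0508, edgeR). Summed lymphoid markers were 62.7, 73.4 and 71.4 CPM in E861A, against 25.4, 41.3 and 31.9 CPM in wild type, also lowest in livers 6 and 2 and with no overlap between the genotypes. Of 6 lymphoid markers tested, Lck and Ptprc, which held most of that sum, rose, and Rag1 fell. Ptprc is not particular to lymphoid cells, so the sum does not stand for these cells alone. Summed endothelial markers were 457, 621 and 610 CPM in E861A, against 413, 508 and 396 CPM in wild type, and 4 of 10 rose while 1 fell. Summed hepatoblast markers were 27103, 30565 and 20950 CPM in E861A, against 16924, 21261 and 20149 CPM in wild type, and 4 of 11 rose. Summed erythroid markers were 15272, 15450 and 14548 CPM in E861A, against 18111, 44683 and 24123 CPM in wild type, and 5 of 10 fell.

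Summed macrophage markers were 434, 344 and 361 CPM in E861A, against 346, 409 and 378 CPM in wild type, with 1 of 11 higher and 1 lower. Summed mesenchymal markers were 1376, 746 and 1846 CPM in E861A, against 2066, 567 and 1316 CPM in wild type, with 0 of 11 called. Summed megakaryocyte markers were 988, 807 and 751 CPM in E861A, against 413, 755 and 786 CPM in wild type, with 0 of 7 called. The T cell marker Cd3e was at 0 reads in 5 of 6 libraries, and every other marker found in the gene table had reads in all 6. The part of cell composition in the rise of the immediate-early genes was not tested.

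Genes with known ties to the 10 were read from lists, chosen with earlier results of these data known. Among 37 other immediate-early genes tested, 20 rose and 0 fell, against 7.77% and 4.26% of all tested genes. Their median log2 fold change was 0.96, against 0.04 over all tested genes. Atf3, a stress-induced bZIP factor, had 35.1, 31.7 and 21.4 CPM in E861A 6, 16 and 19, against 2.71, 2.71 and 2.73 CPM in wild type 2, 15 and 17 (log2 fold change 3.43, SE 0.23, adjusted p = 6.83e-05, edgeR). It did not share the low values of livers 6 and 2. Cebpb, a bZIP factor of liver and myeloid cells, had 18.5, 24.1 and 17.98 CPM in E861A, against 2.83, 4.12 and 3.42 CPM in wild type, and rose by 2.55 on the log2 scale. Nfkbia, the inhibitor that NF-kB induces, rose by 1.84, and Sgk1, a kinase induced by serum and glucocorticoids, by 1.49. Without E861A 16 or without wild type 17, 10 of this list rose, and without livers 6 and 2, 26 rose and 1 fell.

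Of 17 other AP-1 and related bZIP genes tested, which include partners of Fos and Jun, 5 rose, 0 fell and 12 did not pass the test. Over all tested genes 7.77% rose and 4.26% fell. The median log2 fold change of the list was 0.22. Those that rose were Atf3, Batf2 (5.27, adjusted p = 0.00107, edgeR), Jdp2 (1.76), Maff (1.61) and Batf (1.02). Batf2 had 3, 10 and 4 reads in wild type 2, 15 and 17. It could pass the filter on low counts only through its E861A libraries, so its call adds nothing to the count. Batf2 and Batf are Jun partners of immune cells, Jdp2 is a repressor that pairs with Jun, and Maff is a small Maf protein. Fosl2 was at 1.04 and did not pass the test. Without livers 6 and 2, 6 of the list rose and 1 fell. Atf3 and Maff stand also in the list of other immediate-early genes.

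Of the corepressors and relatives of the zinc-finger genes, 1 passed the test. Nab2, a corepressor of Egr1 and Egr2 that Egr factors are known to induce, had 10.6, 11.6 and 13.1 CPM in E861A 6, 16 and 19, against 7.91, 4.72 and 4.53 CPM in wild type 2, 15 and 17 (log2 fold change 1.04, SE 0.26, adjusted p = 0.0402, edgeR). It was 1 of 5 tested genes of the EGR, NAB and tristetraprolin families to rise, and 0 fell, against 7.77% and 4.26% of all tested genes. The count was 2 without wild type 2 and 0 without any other single liver, and without livers 6 and 2 together 2 rose and 1 fell. The tristetraprolin relatives Zfp36l1 (0.40) and Zfp36l2 (-0.35) did not pass the test.

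Upstream of the immediate-early genes, levels of serum response factor and most MAP kinases did not differ beyond their spread. Of 25 such genes tested 2 rose and 1 fell, against 7.77% and 4.26% of all tested genes, with a median of -0.10. Srf itself had 55.0, 54.3 and 57.9 CPM in E861A 6, 16 and 19, against 53.0, 54.5 and 56.0 CPM in wild type 2, 15 and 17. Map2k1, the kinase that activates ERK, had 140.2, 154.3 and 124.9 CPM in E861A, against 57.0, 63.5 and 65.9 CPM in wild type, and rose by 1.17 (SE 0.14, adjusted p = 0.00195, edgeR). Map3k8, a kinase that links inflammatory signals to ERK, rose by 1.67. Map2k3, a kinase of the p38 branch, went the other way (-0.87, SE 0.22, adjusted p = 0.0397, edgeR). Without livers 6 and 2, 3 of the list rose and 7 fell, so that the balance turned. It turned over all tested genes as well, where 15.4% then rose and 16.6% fell.

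Feedback inhibitors of MAP kinase signalling are known to be induced by the pathway they switch off. Of 14 tested 5 rose, 0 fell and 9 did not pass the test, with a median of 0.76. Over all tested genes 7.77% rose and 4.26% fell. Dusp6, the phosphatase of ERK, had 69.4, 85.0 and 77.5 CPM in E861A 6, 16 and 19, against 31.8, 27.1 and 23.5 CPM in wild type 2, 15 and 17 (log2 fold change 1.49, SE 0.16, adjusted p = 0.00107, edgeR). Dusp5 rose by 1.86, Dusp4 by 1.49 and Spry4 by 1.16. The count was 2 without E861A 16, E861A 19, wild type 15 or wild type 17, and 8 without wild type 2. Without livers 6 and 2 together it was 9. Dusp1, itself an immediate-early gene, had 34.8, 71.8 and 63.0 CPM in E861A, against 30.2, 63.2 and 45.9 CPM in wild type, low in livers 6 and 2 and with no difference past the test (0.28, SE 0.34, adjusted p = 0.663, edgeR).

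**Figure D5:**
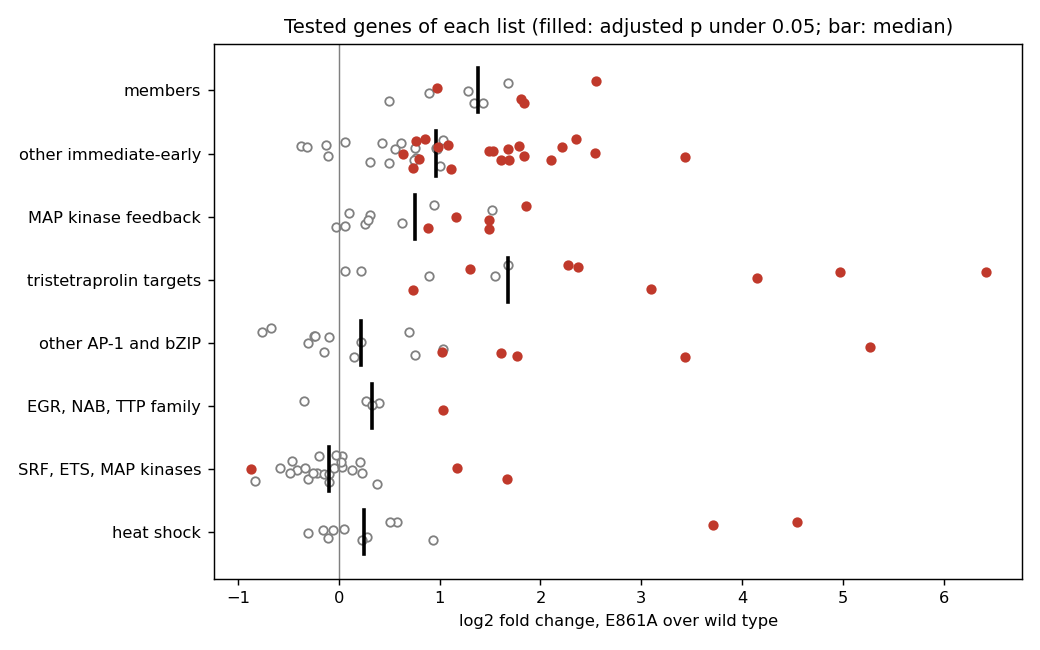
Log2 fold change of E861A over wild type for each tested gene of 8 lists, red where the adjusted p by edgeR was under 0.05, with the median of each list as a bar. The 10 genes and the other immediate-early genes lie mostly right of 0 (medians 1.38 and 0.96), and the serum response factor and MAP kinase list is centred near 0 (median -0.10).

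Heat shock genes are another group known to respond to stress and handling, and their median log2 fold change was 0.25. Of 12 tested 0 fell, against 4.26% of all tested genes, and 10 did not pass the test. The other 2 rose, against 7.77% of all tested genes. These were Hspa1a, with 90.4, 186.3 and 238.7 CPM in E861A 6, 16 and 19, against 2.32, 13.6 and 6.25 CPM in wild type 2, 15 and 17, and its near-identical copy Hspa1b, with 203.5, 429.0 and 540.9 CPM in E861A, against 4.39, 58.0 and 27.3 CPM in wild type. Reads may be split between the copies, and neither passed the test without wild type 17. Both were lowest in livers 6 and 2 of their genotype, as Fos was. Hspa1a rose by 4.54 (SE 0.69, adjusted p = 0.00800, edgeR) and Hspa1b by 3.71 (SE 0.87, adjusted p = 0.0365, edgeR). In the 4 livers other than 6 and 2, 2 of this list rose and 2 fell, against 15.4% and 16.6% of all tested genes. The part of handling in the levels of the immediate-early genes was not tested.

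Messages that tristetraprolin is known to bind are marked by AU-rich elements, built from the pentamer ATTTA. In the longest 3' UTR of each gene (GENCODE M1, build NCBIM37), ATTTA was present in 9 of the 10 genes, all but Ier2, against 61.3% of 19984 genes with a 3' UTR and 71.9% of the 9216 genes whose 3' UTR is in the length range of the 10. The heptamer TATTTAT was present in 6 of them (Fos, Fosb, Jun, Jund, Ier3 and Zfp36), against 25.2% of genes in that length range. ATTTA stood most densely in Ier3, at 8.16 per kilobase, and then in Fos at 4.91, Junb at 4.14 and Zfp36 at 3.88, against a median of 1.29 over genes with at least 200 bases. This search was chosen after the data were seen, and it describes letters, not binding. The densest 30 bases of 4 of the genes are shown to make the element visible, with the pentamers in capitals.
Fos: tttttattgtgttttcaATTTATTTAttaa
Jun: ATTTAtaatcataggaaagATTTAgtaatt
Ier3: tctaattaatATTTAtgtATTTAtgtatat
Zfp36: ATTTAttgtattaagattttatagtATTTA

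Messages known as tristetraprolin targets were mostly higher in E861A livers. Of 13 tested 8 rose and 0 fell, against 7.77% and 4.26% of all tested genes, and 5 rose without E861A 16 or without wild type 17. Among those that rose, Cxcl1 had 2, 1 and 3 reads in wild type 2, 15 and 17, and Cxcl2 had 3, 5 and 5. Both could pass the filter on low counts only through their E861A libraries, so their calls add nothing to the count. The median log2 fold change, 1.68, is the value of Fos itself, so it is not separate from the 10 genes. Fos and Ier3, which did not pass the test, are on this list too, as is Myc, which also counts among the other immediate-early genes. The chemokine Ccl2 had 36.8, 16.3 and 16.2 CPM in E861A 6, 16 and 19, against 0.76, 0.83 and 0.61 CPM in wild type 2, 15 and 17, and rose by 4.97 on the log2 scale. The chemokines Cxcl1 and Cxcl2 rose by 6.42 and 4.15, and the cytokine Tnf by 2.37 (adjusted p = 0.00437, edgeR). None of these 4 was lowest in liver 6 among the E861A livers. The other 4 that rose, Ptgs2, Vegfa, Myc and Ccl3, were lowest there, as Fos was, and Ccl3 had 7.42, 13.4 and 9.87 CPM in E861A 6, 16 and 19, against 0.667, 3.52 and 2.17 CPM in wild type 2, 15 and 17. The count was 9 without livers 6 and 2.

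The mean centred log2 CPM of the 10 genes was -0.15, 1.28 and 1.04 in E861A 6, 16 and 19, against -1.89, -0.03 and -0.25 in wild type 2, 15 and 17. Of 11171 other genes with a mean of at least 5 CPM, those most alike over the 6 livers were Parvg (Pearson r = 0.998), Cyth4 (0.997), Arhgap30 (0.996), Def6 (0.996), Ptpn6 (0.994) and Arrb2 (0.993). Parvg had 30.3, 51.6 and 45.2 CPM in E861A, against 14.5, 31.5 and 27.4 CPM in wild type. Its log2 fold change, 0.79, did not pass the test (adjusted p = 0.155, edgeR). After genotype means were taken away, the most alike were Cyth4 (0.9991), Cad (0.9989), Gemin5 (0.9985), Kdm5c (0.9985), Pip5k1a (0.9984) and Urb1 (0.9982). Cad, an enzyme of pyrimidine synthesis, fell in E861A (-0.95, adjusted p = 0.0434, edgeR), opposite to the immediate-early genes. With 6 livers that share 1 pair of low values, such a likeness is a description and carries no test.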

How the data were processed

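RNA of 6 fetal livers, 3 E861A and 3 wild type, was sequenced, and livers were grouped by the genotype label. The submitters' processing notes name limma, edgeR, Cufflinks and HTSeq, the aligners BWA, Bowtie2 (2.1.0.0) and TopHat2 (2.0.8), the trimmer Trimmomatic (0.30) and SAMtools (0.1.19), with mm9 and NCBIM37, tied to no file or order. Strandedness is not given in the sources used here. As deposited, the gene table gives raw counts, whole reads for each of 37576 Ensembl genes. Per the file headers, the site table gives counts of covering reads and, as a fraction of these, the editing level deposited by the authors. The authors' deposited comparison holds log2 fold changes and p-values under column names that limma uses, per the file headers. A table of normalised values was left out because the raw counts were at hand.

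Counts were compared with edgeR 4.0.16 in R 4.3.3. The steps were filterByExpr, which kept 16511 genes, TMM, the robust quasi-likelihood fit, its F test and Benjamini-Hochberg adjustment over all tested genes at 0.05. A positive log2 fold change means higher in E861A, and its SE was obtained by dividing it by the square root of F. RPKM are CPM per kilobase of exon in GENCODE M1, which has the build of the counts. Reads in genes were 42141482, 35280460 and 43080042 in E861A 6, 16 and 19, and 39441790, 43733715 and 39192271 in wild type 2, 15 and 17. Replicates differed by more than counting error (chi-square per degree of freedom 37.3 to 116.0) and correlated at 0.973 to 0.995 (Pearson, log2 CPM). The fit was tested on simulated data. Alternatives were RLE size factors, DESeq2 1.42.0, other low-count filters, sex as a covariate, male livers only, leaving out each liver, and, chosen after the data were seen, leaving out E861A 6 and wild type 2 together. Log ratios were compared by exact permutation tests.

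The 10 genes and the gene lists were chosen with earlier results of these data known. All 10 are named. Of each list the text names the 4 called genes with the smallest p and any called gene that goes against its list, except that Srf, Dusp1, Batf, Ptgs2, Vegfa, Myc, Ccl3, the named cell type markers, Fosl2, Zfp36l1 and Zfp36l2 were chosen after their values were seen. Genes of like pattern were the 6 with the highest Pearson r, over the 6 livers and again after genotype means were taken away. A symbol with several gene IDs was read from the first. Figures were drawn with matplotlib 3.10.9.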

Additional observations from a re-analysis of the deposited data

How the results depend on the processing

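No paired analysis was possible because no replicate number occurs in both genotypes. The fold change of each of the 10 genes kept its sign under all alternatives that tested it, and 0 of the 10 fell. The balance of counts turned in places: over all genes more fell than rose without E861A 6 and wild type 2, and in the upstream list more fell than rose with DESeq2, RLE size factors, the 1 CPM floor, without wild type 2 and without both livers. The number of the 10 that rose was 4 with all livers and 1 to 5 without each liver in turn. It was 1 (Egr1) without E861A 16 or without wild type 17, where 3.02% and 3.23% of all tested genes rose. Without E861A 6 and wild type 2 together it was 9, where 15.4% of all tested genes rose. Over all genes, 515 to 1737 rose and 95 to 1502 fell without each liver in turn, against 1283 and 703 with all. With sex as a covariate the counts were 530 and 39, in male livers only 301 and 8, and without both livers 2545 and 2737. DESeq2 gave 1397 that fell and the 1 CPM floor 1160.

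Without each liver in turn, 10 to 24 other immediate-early genes, 4 to 5 AP-1 genes, 0 to 2 of the EGR, NAB and tristetraprolin families, 2 upstream genes, 2 to 8 feedback inhibitors, 5 to 8 tristetraprolin targets and 0 to 2 heat shock genes rose, while 0 to 1 AP-1 genes, 0 to 1 EGR family genes and 0 to 3 upstream genes fell. With sex as a covariate 9, 3, 0, 1, 2 and 5 of the first 6 of these lists rose, and in male livers 5, 2, 0, 0, 0 and 4, with 0 upstream genes lower in both. Without both livers 2 EGR family genes and 9 feedback inhibitors rose, and 1 other immediate-early, 1 AP-1, 1 EGR family, 7 upstream and 2 heat shock genes fell. Under RLE size factors, DESeq2, no filter beyond 1 read and the 1 CPM floor, 1 AP-1 gene fell in each, and 3, 6, 2 and 5 upstream genes fell. With no filter 0 heat shock genes rose, and with the 1 CPM floor 0 EGR family genes rose. The cause of these changes was not tested. In male livers the lone wild-type liver was assumed to vary like the E861A livers. Egr2, at 4 to 46 reads a library, and Fosb in E861A 6 and wild type 2, at 15 and 3 reads, are limited by depth.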
